A study of Mus musculus with 18 samples.

Results

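Passenger-strand microRNAs (miRNAs) were examined in the liver of male Muta™Mouse after 28 days of benzo(a)pyrene (BaP). The members were all mouse names on the array that end in an asterisk, the older notation for the strand of a miRNA duplex thought to be discarded. There were 115 such star names among the 576 names on the array, and they were carried by 397 probes on 2300 spots. Each star name had 2 to 4 probes. The array also held 451 other mouse names and 10 viral names. Arms that were already named -5p or -3p, 129 names in all, carry no asterisk and are not members. Of the miR-34 family only miR-34c* had an asterisk name here.

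The 18 arrays came from 18 mice of transgenic strain 40.6 that were 25 weeks old and carry a bacterial lacZ reporter for scoring mutations. BaP, a polycyclic hydrocarbon that is converted to DNA-binding metabolites, was given by daily gavage in olive oil at 25, 50 or 75 mg/kg/day. The arrays came from 5 mice of each dose and from 3 controls, which received olive oil alone. The paper describes 5 mice per group, controls included, and the removal of 2 miRNA arrays at its quality check, without naming them. Liver was taken 3 days after the last dose, so all values describe tissue after that recovery interval. Replicate numbers follow listing order and only name an array. The arrays lay on 3 slides. Slide 1 had 1 control and 2 mice from every BaP dose. The 4 mice of slide 2 were all dosed, 2 with 50 and 2 with 75 mg/kg/day, so no control lay on it. Slide 3 had 2 controls, 3 mice given 25 mg/kg/day and 1 from each higher dose.

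A miRNA hairpin is cut by Drosha and then Dicer into a short duplex. One strand, the guide, is loaded into Argonaute and pairs with target transcripts through its seed, bases 2 to 8, while the other is usually degraded. The discarded strand is therefore often scarce, although in some hairpins both strands are loaded. Since the strands have different seeds, a star strand that accumulates would pair with a different set of transcripts than its partner.

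Liver identity was plain in the guide strands. The hepatocyte miRNA miR-122 gave 97.7 to 401 times the median negative-control signal on the 18 arrays, and miR-192 and miR-194 were also well above background on all 18. Of the markers of other cells, endothelial miR-126-3p was well above background on 18 arrays and miR-126-5p on 0. Red-cell miR-451 was so on 18, miR-144 on 15 and miR-486 on 0. White-cell miR-223 was so on 15, miR-142-3p on 7, and miR-142-5p, miR-150 and miR-155 on 0. Mesenchymal miR-199a-3p was so on 18, miR-199a-5p on 1, and miR-214, miR-143 and miR-145 on 0.

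The sequences below, from the RefSeq miRNA table (build GRCm38.p6), are those of the star strands detected most often, of pairs of star strands too alike to be told apart with certainty by a short probe, and of the hairpins whose strand difference passed the dose test. Seeds are in capitals and all are written 5′ to 3′. The array files name no accession, so each star name was read as the arm opposite to the one that bears the plain name. RefSeq sequences were found in this way for 11 of the 13 star names looked up, and miR-467a* and miR-467b* are named only.
miR-22*: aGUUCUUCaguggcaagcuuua
miR-22: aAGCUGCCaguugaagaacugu
let-7b*: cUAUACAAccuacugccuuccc
let-7f*: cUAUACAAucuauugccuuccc
let-7b: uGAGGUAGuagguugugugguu
miR-877*: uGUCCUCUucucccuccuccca
miR-877: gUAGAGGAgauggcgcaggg
miR-30a*: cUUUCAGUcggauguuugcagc
miR-30e*: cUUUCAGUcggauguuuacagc
miR-140*: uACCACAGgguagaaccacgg
miR-10a*: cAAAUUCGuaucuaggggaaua
miR-10a: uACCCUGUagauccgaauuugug
miR-15b*: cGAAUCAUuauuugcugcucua
miR-15b: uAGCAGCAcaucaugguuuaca

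The strands of a hairpin shared no seed in these examples, but star strands of related hairpins did. Let-7b* and let-7f* had the same seed and were identical at 20 of 22 bases. MiR-30a* and miR-30e* had the same seed and were identical at 21 of 22 bases. Signals of these pairs may therefore include cross-hybridisation. The names of each pair were still counted and tested separately, so their results should not be read as independent.

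The hairpins lie in different genomic settings. MiR-22* lies at chr11:75463734-75463755 on the plus strand, within the non-coding host gene Mir22hg. Let-7b* lies at chr15:85707379-85707400 on the plus strand, within the span of the non-coding gene Lncppara. MiR-877* lies at chr17:35960731-35960752 on the minus strand, within the protein-coding gene Abcf1, and miR-877 is a mirtron, a hairpin released by splicing of an intron instead of by Drosha. MiR-140* lies at chr8:107551288-107551308 within Wwp2, miR-10a* at chr11:96317227-96317248 within Hoxb3, and miR-15b* at chr3:69009813-69009834 within Smc4, all on the plus strand. The table used gives gene spans only, so exons and introns were not assigned.

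Few star strands were measurable in this tissue. A name was counted as detected on an array when at least 0.5 of the spots of 1 or more of its probes were marked well above background by the image software. Of the 115 star names, 20 (17.4%) were detected on at least 1 of the 18 arrays, against 118 of 451 (26.2%) other mouse names. None of the 115 was detected on all 18 arrays, and 9 of the 20 were detected on exactly 1 array, whereas 42 other mouse names were detected on all 18. In all, 64 of 2070 array-by-name calls were positive. A name was called present when a probe passed in at least 0.8 of the arrays of a dose group. By this rule 68 other mouse names (15.1%) were present and 0 star names were. MiR-34c* and its partner miR-34c were detected on 0 of 18 arrays.

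Star signals lay close to the floor of the array. The signal of each name was divided by the median of the 672 negative-control spots of the same array. Over the 115 star names, the median of this ratio across arrays ran from 0.852 to 1.15, and 101 names had a median under 1. Only miR-877*, let-7f* and let-7b* had medians above 1.1. Values near 1 carry no level: they show that signal was not distinguishable from background, not that the strand was absent.

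Differences between dose groups in the number of detected star names were within the spread between arrays, which holds both mouse and slide. Controls had 5, 1 and 1 detected star names. At 25 mg/kg/day there were 14, 6, 0, 0 and 2, at 50 mg/kg/day 1, 4, 6, 3 and 2, and at 75 mg/kg/day 3, 5, 6, 4 and 1. The ranges of all dose groups overlapped that of the controls. Mean ± SD was 2.33 ± 2.31 in controls (n = 3), 4.4 ± 5.90 at 25 (n = 5), 3.2 ± 1.92 at 50 (n = 5) and 3.8 ± 1.92 at 75 mg/kg/day (n = 5). Two-sided exact permutation tests against controls, which took no account of slide, gave P = 0.768, 0.589 and 0.375. Their 56 splits allow no P under 0.0179. In the same array order, other mouse names detected were 83, 74 and 65 in controls and 102, 85, 74, 46 and 53 at 25. They were 59, 79, 87, 71 and 71 at 50 and 68, 78, 70, 65 and 73 at 75 mg/kg/day.

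**Figure D1:**
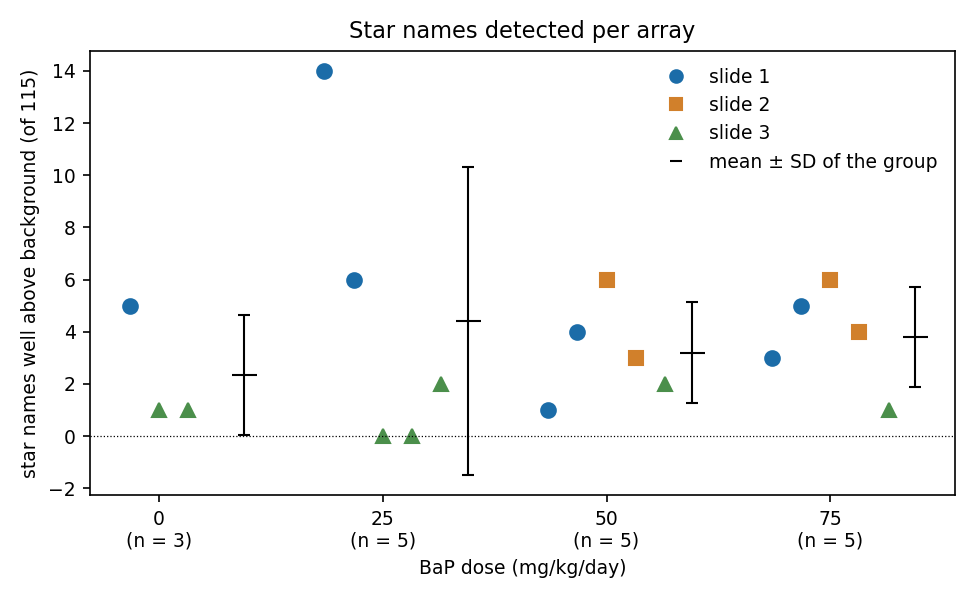
Star names well above background on each of the 18 arrays (vertical axis, of 115 names) by BaP dose in mg/kg/day, with 1 symbol per slide and bars for the mean ± SD of each dose group. Arrays on slide 3 hold 0 to 2 star names in every group, those on slide 1 hold 1 to 14, and the dose groups overlap.

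Detection moved with the slide. The 7 arrays of slide 1 carried 38 star calls, the 4 of slide 2 carried 19 and the 7 of slide 3 carried 7. The median per array was 5, 5 and 1 star names on slides 1, 2 and 3. For other mouse names it was 79 (59 to 102), 70.5 (65 to 87) and 71 (46 to 74). Of the 20 detected star names, 11 were detected only on slide 1, 6 only on slide 2 and 0 only on slide 3. The 3 names detected on more than 1 slide were miR-877*, miR-22* and let-7b*. The spot median was 39.5 to 50.5 on slide 1, 63 to 69 on slide 2 and 58 to 64 on slide 3. Taken within slides, the difference from control was 2.33 names at 25 mg/kg/day (exact permutation P = 0.633, 30 arrangements), -0.75 at 50 (exact P = 0.889) and -0.5 at 75 (exact P = 1), with 9 arrangements each. At both higher doses the sign was thus opposite to that of the pooled difference. Each value is the mean of slides 1 and 3. The single slide 1 control had 5 names, against means of 10, 2.5 and 4 at 25, 50 and 75 mg/kg/day. Slide 3 controls had a mean of 1, against 0.667, 2 and 1. The negative sign at both higher doses thus came from slide 1 and its 1 control. The 4 arrays of slide 2, which has no control, do not enter the within-slide values but are in the pooled ones. With 9 arrangements no P under 0.05 is possible. The part of the slide in the pooled values was not tested further.

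One array held a large share of the calls. Replicate 1 at 25 mg/kg/day, on slide 1, had 14 detected star names, including 6 of the 9 names detected on a single array, and it also had the most other mouse names detected (102, against 46 to 87 on the other arrays). Without it 14 star names remained detected and the mean difference at 25 mg/kg/day was -0.333 names.

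Partner strands were measured far more often than star strands. A partner with the same name but no asterisk was on the array for 103 of the 115 star names. Of the other 12, 9 had a partner once a locus number was removed from the name, as for miR-24-1* and miR-24, and 3 (miR-125b*, miR-199b* and miR-297a*) had none. Of the 103 partners 30 (29.1%) were present and 60 were never detected. Both strands were present in 0 pairs. In 24 pairs the partner was present and the star strand was never detected, in 6 pairs the partner was present and the star strand was detected on at least 1 array, and in 51 pairs neither strand was ever detected.

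**Figure D2:**
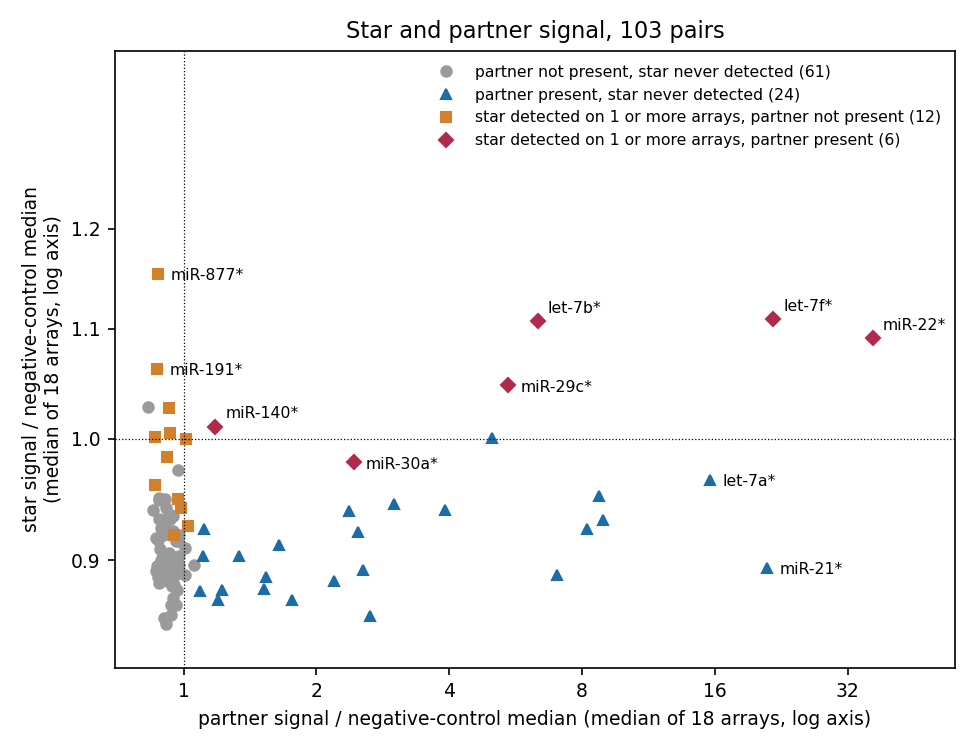
Median signal over 18 arrays of each star name (vertical) against its partner (horizontal) for 103 pairs, both divided by the negative-control median and on log axes, with dotted lines at 1. Partners spread up to 36.5 while star names stay between 0.852 and 1.15, and the 6 pairs with a present partner and a detected star are diamonds.

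The brightest partners did not all have a detected star strand. MiR-22, an abundant liver miRNA, had a median of 36.5 times the negative controls, and miR-22* was detected on 9 arrays. Let-7f, of the let-7 family that restrains growth genes, stood at 21.7 with let-7f* detected on 5 arrays. MiR-21, which is raised in many injured tissues, stood at 21.0, close to let-7f, but miR-21* was detected on 0 arrays, with a ratio of 0.846 to 0.942. Let-7a at 15.6 and miR-15a at 8.92 also had star strands detected on 0 arrays. The other pairs with a detected star and a present partner were those of let-7b, miR-29c, miR-30a and miR-140.

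In all 30 pairs with a present partner, the partner signal exceeded the star signal on all 18 arrays. The median of log2 star minus log2 partner signal was -5.05 for miR-22, -4.19 for let-7f, -2.52 for let-7b, -1.25 for miR-30a and -0.23 for miR-140. These are differences between probes of unlike sequence at raw signal, and with the star near background they are limited from below by the array. They do not measure the ratio of strand molecules.

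The reverse order held on all 18 arrays only where the partner was at background. On some arrays it was also seen in other pairs, such as on 12 for miR-376c and 10 for miR-378, whose partners were each detected on 2 arrays. In 12 pairs the star name was brighter on all 18 arrays, namely miR-877, miR-744, miR-191, miR-299, miR-467e, miR-130b, miR-17, miR-433, miR-463, miR-483, miR-674 and miR-742. No partner of these 12 was ever detected, and 7 of the 12 star names were not detected either. In 9 pairs the star was detected on at least 1 array and the partner on none, among them miR-877, miR-467a, miR-467b and miR-135a.

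MiR-877* was the star name detected most often, on 11 of 18 arrays, 4 of 7 on slide 1, 4 of 4 on slide 2 and 3 of 7 on slide 3. Its ratio to negative controls was 1.14, 1.09 and 1.12 in controls, 1.17, 1.24, 1.10, 1.08 and 1.08 at 25, 1.11, 1.21, 1.24, 1.18 and 1.14 at 50, and 1.22, 1.20, 1.24, 1.16 and 1.10 at 75 mg/kg/day. It was detected on 1 of 3, 3 of 5, 3 of 5 and 4 of 5 arrays. The dose groups overlapped throughout. All 4 of its probes contributed, detected on 4, 4, 8 and 9 arrays, so the signal did not come from a single probe. MiR-877 itself was detected on 0 arrays with a median ratio of 0.877.

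MiR-22* was detected on 9 arrays, 2 of 3 controls and 2, 3 and 2 of 5 at 25, 50 and 75 mg/kg/day. Its ratio was 1.45, 1.15 and 1.02 in controls, 1.50, 1.35, 1.02, 0.947 and 0.938 at 25, 0.995, 1.27, 1.11, 1.03 and 1.10 at 50, and 1.16, 1.22, 1.01, 1.02 and 1.09 at 75 mg/kg/day. The 3 highest values, all on slide 1, were from a control and both slide 1 arrays at 25 mg/kg/day. MiR-22 was at 77.0 and 70.1 times the negative controls on the arrays with the star at 1.45 and 1.50, and at 14.0 and 17.8 on those with the star at 0.947 and 0.938. The order was not kept on the other arrays: the star was at 1.16 and 1.22 where miR-22 was at 25.4 and 32.2, and at 1.02 and 1.09 where miR-22 was at 45.4 and 51.8. One of its 2 probes was detected on all 9 of these arrays and the other on 3.

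Let-7b* was detected on 8 arrays, 0 of 3 controls and 3, 2 and 3 of 5 at the rising doses. Of these 8 arrays 6 were on slide 1. Its ratio was 1.21, 1.08 and 1.06 in controls, 1.22, 1.24, 1.07, 1.07 and 1.08 at 25, 1.19, 1.20, 1.10, 1.13 and 1.10 at 50, and 1.25, 1.25, 1.10, 1.10 and 1.11 at 75 mg/kg/day. The slide 1 control, at 1.21, was not detected, yet it was higher than every array of slides 2 and 3, detected ones included. It was also higher than both slide 1 arrays at 50 mg/kg/day, which were detected at 1.19 and 1.20. Detection thus did not keep the order of the ratio. Detection by dose and detection by slide cannot be separated with a single control on slide 1. Let-7f*, nearly identical in sequence, was detected on 5 arrays, all on slide 1, with 0 controls among them.

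MiR-467a* and miR-467b*, of a rodent miRNA family with many copies, were each detected on 4 arrays and these were the 4 arrays of slide 2. The ratio of miR-467b* was 1.28 and 1.27 at 50 and 1.56 and 1.37 at 75 mg/kg/day on that slide. On slides 1 and 3 it was 0.910 to 1.09 in every group, also at 50 and 75 mg/kg/day. All 4 probes of miR-467b* were detected on the same 4 arrays. Slide 2 holds no control, and the other 3 arrays at 50 and the other 3 at 75 mg/kg/day did not detect it. Slide and dose cannot be told apart on slide 2.

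**Figure D3:**
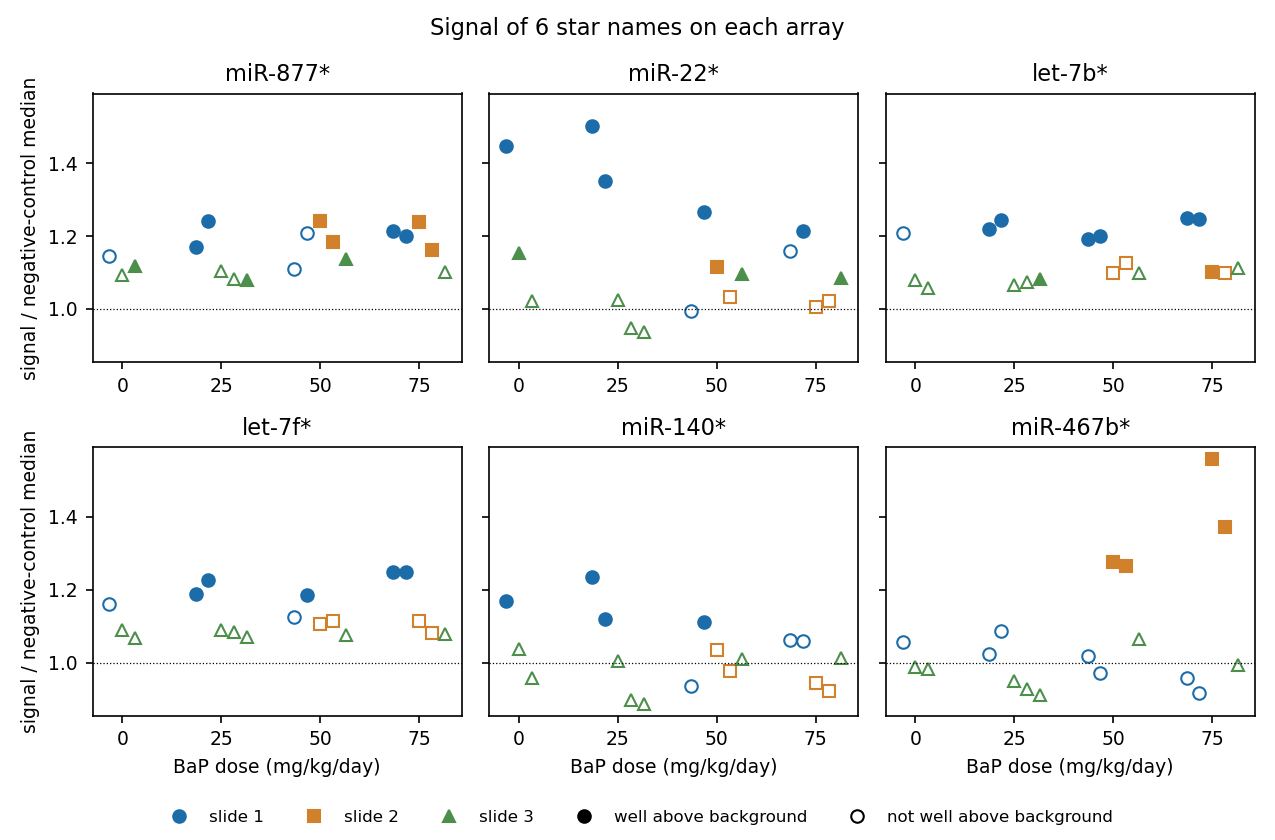
Signal divided by the negative-control median of the array (vertical axis) for 6 star names on each of the 18 arrays, by BaP dose in mg/kg/day, with symbols for slides and filled symbols for arrays where the name was well above background. MiR-467b* is above 1.2 on the 4 arrays of slide 2 and 1.09 or lower elsewhere, and let-7b* and let-7f* are highest on slide 1 at every dose that slide holds, controls included.

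The remaining star names detected on more than 1 array were low. MiR-140* was detected on 4 arrays, miR-135a* and miR-30e* on 3 each and miR-30a* on 2, all on slide 1. Each of these 4 was detected in 1 of 3 controls. For miR-140*, miR-135a*, miR-30e* and miR-30a* a single probe of the name gave all calls. MiR-744* was detected on 2 arrays, both at 75 mg/kg/day and on slide 2.

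Dose response was tested on cyclic-loess normalised log2 signal by limma with slide as a block, and P-values were adjusted by the method of Benjamini and Hochberg (FDR-adjusted) over all names tested. Among the 69 names present in a group, 0%, 2.9% and 5.8% differed from control at 25, 50 and 75 mg/kg/day and 10.1% had a linear trend over dose at an adjusted P-value under 0.05. No star name was among the 69, so this presence rule leaves no star strand to test. All 576 names were therefore fitted without that rule as well. The values that follow come from that fit and mostly describe signal near background.

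In the fit of all names, 0 of the 115 star names passed at 25 mg/kg/day, 0 at 50, 1 at 75 and 0 for the trend. Over all 576 names 0%, 0.174%, 1.56% and 1.39% passed. At an unadjusted P under 0.05 there were 9, 10, 12 and 9 star names, against 10.2%, 9.2%, 13.4% and 11.5% of all names. Over the 115 star names the median log2 difference from control was -0.0012, 0.0050 and 0.0066 with rising dose. That over all names lay between -0.000089 and 0.0010. The share of star names that passed was thus no higher than that of all names.

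The star name that passed was miR-27a* (FDR-adjusted P = 0.0254 at 75 mg/kg/day, limma), the discarded strand of a hairpin in the miR-23a cluster. It was detected on 0 arrays, with a ratio of 0.829 to 0.924 to negative controls, so no fold change is given. Its normalised log2 signal was 5.65 ± 0.02 in controls (SD, n = 3), 5.70 ± 0.0037 at 25, 5.68 ± 0.02 at 50 and 5.71 ± 0.03 at 75 mg/kg/day (n = 5 each). The control range of 5.63 to 5.67 overlapped the range at 75 mg/kg/day by 1 array, at 5.67. The adjusted P rose to 0.169 without control replicate 1, 0.106 without control replicate 3, 0.0899 and 0.0768 when replicates 2 and 5 of the highest dose were left out in turn. It was also past 0.05 in 6 of 8 other settings, at up to 0.745.

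None of the 10 star names detected on the most arrays passed at any dose. Their adjusted P-values were 0.684 or higher at 25, 0.291 or higher at 50 and 0.323 or higher at 75 mg/kg/day. MiR-22* differed from control at 75 mg/kg/day by -0.12 ± 0.05 (SE) on the log2 scale (unadjusted P = 0.0405, FDR-adjusted P = 0.324, limma). The difference was -0.19 on slide 1 and -0.03 on slide 3, and the exact permutation P over 3 and 5 arrays was 0.0893. MiR-877* differed by 0.10 ± 0.06 (FDR-adjusted P = 0.512, limma).

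The balance of strands was then followed over dose. For each of the 103 pairs, log2 partner signal was subtracted from log2 star signal on the same array, and only the change of this strand difference between groups was tested. Adjusted over the 103 pairs, 0% passed at each of the 3 doses, and 2.91%, 3 pairs, passed for the linear trend. At an unadjusted P under 0.05 there were 6, 11, 19 and 16 pairs. The 3 pairs were those of let-7b, miR-10a and miR-15b.

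The let-7b strand difference rose by 0.10 ± 0.02 (SE) on the log2 scale per 25 mg/kg/day (FDR-adjusted P = 0.0200, limma). It was -2.48, -2.61 and -2.52 in controls and -2.29, -2.35, -2.60, -2.38 and -2.48 at 25 mg/kg/day. It was -2.12, -2.14, -2.17, -2.17 and -2.51 at 50, and -1.87, -2.11, -2.18, -2.19 and -2.38 at 75 mg/kg/day. All 5 arrays at 75 mg/kg/day lay above all 3 controls, while those at 25 and 50 overlapped the controls. The pair was picked by its trend on these same values, so this separation adds no support of its own. How many of the 103 pairs separated as fully was not counted. Within slides the strand difference was higher at 75 mg/kg/day by 0.49 on slide 1 and 0.18 on slide 3. The exact permutation P was 0.111, the lowest that 9 arrangements allow.

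Neither strand of let-7b passed on its own. The trend was 0.03 ± 0.02 per 25 mg/kg/day for let-7b* (FDR-adjusted P = 0.513) and -0.07 ± 0.02 for let-7b (FDR-adjusted P = 0.167, limma, all 576 names). Let-7b* was detected in 0 of 3 controls and in 3, 2 and 3 of 5 arrays at the rising doses. Its signal was 1.06 to 1.25 times the negative controls over the 18 arrays. The strand difference therefore sets let-7b against a star signal near background in every group. Where let-7b* was not detected, as in all controls, its signal is an upper limit. Adjusted P for the strand difference was 0.169 without control replicate 1, 0.0805 without replicate 1 at 75 and 0.0545 without replicate 2 at 75 mg/kg/day, all 3 on slide 1. The call was also lost with quantile normalisation (adjusted P = 0.142), with arrays centred on their medians (0.741), with the authors' table (0.363) and with the brightest probe (0.115).

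For miR-10a, encoded in the Hoxb cluster, the star strand was detected on 0 arrays, so its strand difference sets the partner against a signal at background. Its trend was 0.06 ± 0.01 per 25 mg/kg/day (FDR-adjusted P = 0.0200, limma). The strand difference was -0.91, -0.90 and -0.98 in controls, and -0.66, -0.66, -0.82, -0.78 and -0.73 at 75 mg/kg/day, with no overlap. This pair too was picked by its trend on the same values. Within slides the strand difference was higher at 75 mg/kg/day by 0.25 on slide 1 and 0.21 on slide 3. The exact permutation P was 0.111, the lowest that 9 arrangements allow. The trend of miR-10a* alone was -0.00037 ± 0.0045 (FDR-adjusted P = 0.995). The partner miR-10a, detected on all 18 arrays, fell by 0.06 ± 0.01 per 25 mg/kg/day (FDR-adjusted P = 0.00862, limma). Adjusted P for the strand difference was 0.149 without control replicate 1 and 0.0805, 0.0545 and 0.0520 without replicates 1, 2 and 5 at 75 mg/kg/day, and 0.496 with arrays centred on their medians.

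MiR-15b belongs to the miR-15/16 family, which restrains cell-cycle genes. Its star strand was also detected on 0 arrays. The trend of its strand difference was -0.05 ± 0.01 per 25 mg/kg/day (FDR-adjusted P = 0.0411, limma), but it turned to 0.0095 with arrays centred on their medians (adjusted P = 0.981). The call was also lost with quantile normalisation (adjusted P = 0.503), with the authors' table (0.963), with no slide term (0.762) and with slide as a random block (0.361). Slide set most of its spread, with -1.10 to -0.88 on slide 1 and -1.52 to -1.31 on slides 2 and 3. Pooled over slides the groups overlapped, with means of -1.19 ± 0.26 in controls (n = 3) and -1.29 ± 0.23 at 75 mg/kg/day (n = 5). Within slides it was lower at 75 mg/kg/day by 0.17 on slide 1 and by 0.19 on slide 3. The exact permutation P was 0.111, the lowest that 9 arrangements allow. MiR-15b* alone had a trend of 0.0066 ± 0.0045 (FDR-adjusted P = 0.606), whereas miR-15b rose by 0.06 ± 0.01 per 25 mg/kg/day (FDR-adjusted P = 0.0338, limma). The strand difference no longer passed without any 1 of 7 arrays: control replicates 1 (adjusted P = 0.169) and 2 (0.0639), replicates 1 (0.0579) and 2 (0.0601) at 50, and replicates 1 (0.126), 2 (0.0545) and 5 (0.0922) at 75 mg/kg/day.

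**Figure D4:**
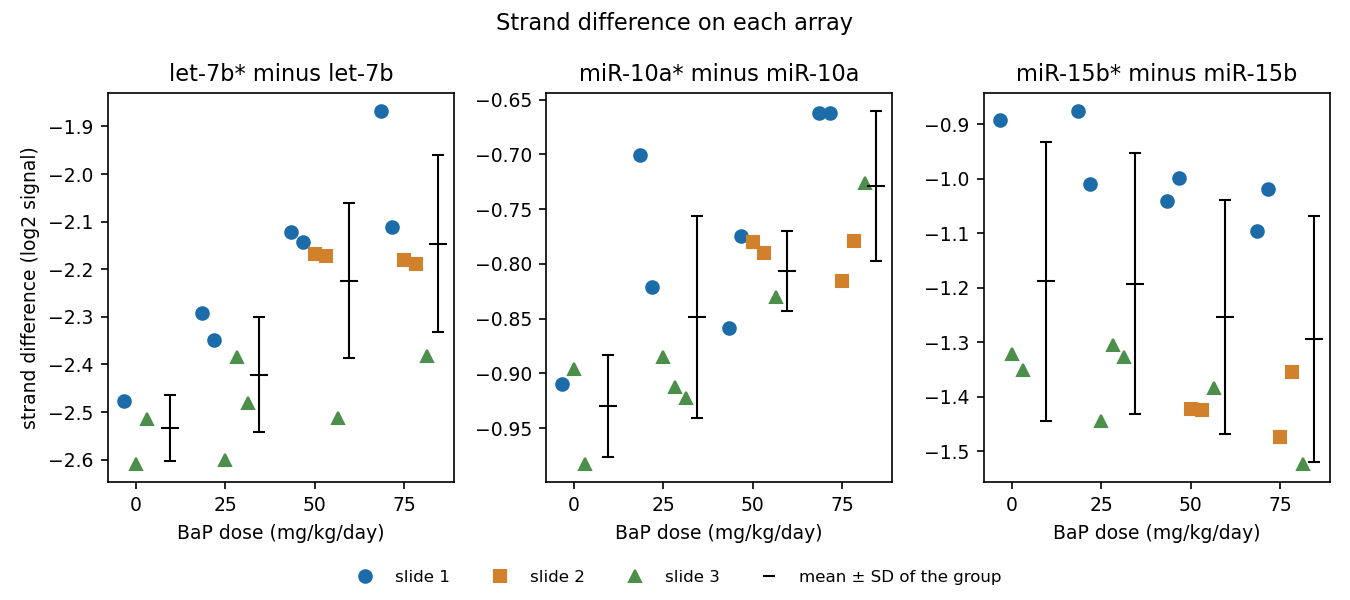
Strand difference, log2 signal of the star name minus that of its partner, on each of the 18 arrays for let-7b, miR-10a and miR-15b by BaP dose in mg/kg/day, with symbols for slides and bars for the mean ± SD of each dose group. At 75 mg/kg/day all arrays lie above the controls for let-7b and miR-10a, and for miR-15b the arrays of slide 1 lie above those of slides 2 and 3 at every dose.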

How the data were processed

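Per the file headers, RNA of each liver was labelled with Cyanine 3-pCp, hybridised to a 1-colour Agilent mouse miRNA array (1 array per mouse) and read with Agilent Feature Extraction 10.7.3.1. The deposited spot intensities are linear and not normalised between arrays, and the deposited flags mark spots well above background. A deposited table of log2 values per name, whose centring is unknown, served as an alternative. It correlated at 0.990 to 0.997 with log2 signal over 574 names, and its column medians were 5.74 to 5.76.

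Median signal without background subtraction was set to log2, outlier spots (1.91% to 3.84%) were left out, arrays were normalised by cyclic loess, spots were reduced to probe medians and present probes averaged per name. Limma 3.58.1 in R 4.3.3 was fitted to all 18 arrays with slide as a fixed block. It stands for the study's MAANOVA, whose shuffling test was not run. P-values were adjusted by Benjamini-Hochberg, threshold 0.05, and scripts were tested on simulated data. Counts per array were compared by exact permutation.

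The members and lists were chosen with earlier results of these data known. The rule named up to 10 star names detected on the most arrays, in alphabetical order at ties, and always miR-34c*. For these 10 it asked only for the number of arrays, so their signal values and tests go beyond it. It also named miR-34a, which bears no asterisk and is not reported here. MiR-27a*, miR-10a* and miR-15b* were named after their values were seen, and so were miR-21*, miR-29c*, miR-744* and the names brighter than their partners. The presence rule, built on the software's flags, stands for the study's rule of signal above background and is not identical to it. No star name met it, so the fit without it gave the dose values. Its combinations with other alternatives were chosen after seeing the data. The number of arrays limits precision.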

Additional observations from a re-analysis of the deposited data

How the results depend on the processing

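No paired analysis was possible because replicate numbers only follow the order of listing. With the presence rule, the star names tested were 0 under all alternatives but 2: 3 were tested with presence in 0.5 of a group and 1 without control replicate 3. Agilent's total gene signal without the presence rule was not run, since most names lie at its floor.

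The pooled difference in detected star names changed sign under other detection rules: with any spot of a probe to -5.13 at 25 and -3.93 at 75 mg/kg/day, and by Agilent's own call to -1.67 at 25, -1.07 at 50 and -1.67 at 75. Within slides, as the mean of slides 1 and 3, the difference was -0.75 at 50 and -0.5 at 75. Leaving out 1 array gave -0.333 to 3.4 at 25, 0.167 to 2.2 at 50 and 0.8 to 2.8 at 75. The cause was not tested.

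The number of star names called was 0 with the presence rule. Without it, it was 1 at 25 and 1 at 50 with quantile normalisation, 1 at 75 (also with outlier spots kept and with slide as a random block) and 1 for the trend with the brightest probe. Leaving out 1 array gave 0 to 0 at 25, 0 to 1 at 50, 0 to 2 at 75 and 0 to 1 for the trend.

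The number of strand differences called was 1 at 50, 1 at 75 and 1 for the trend with presence in 0.5 of a group, in each case let-7b* as 1 of only 2 pairs tested. It met that rule through dosed groups alone, having been detected in 0 of 3 controls. With the authors' table it was 1, 1, 2 and 2 at 25, 50, 75 and trend. At 75 it was 4 with the brightest probe and 1 with slide as a random block. For the trend it was 3 with no presence rule, 1 with quantile, 3 with normexp background, 5 with outlier spots kept, 3 with the brightest probe, 2 with no slide term and 2 with slide as a random block. Leaving out 1 array gave 0 to 0 at 25, 0 to 0 at 50, 0 to 6 at 75 (6 without control replicate 3) and 0 to 7 for the trend (7 without replicate 5 at 75 mg/kg/day). Centring arrays on their medians turned the miR-15b trend to 0.0095. Of 8 other settings, miR-10a passed in 7, let-7b in 4, miR-15b in 3 and miR-27a* in 2. The cause was not tested.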

Other observations

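Of the 20 detected star names, 9 were detected on a single array. MiR-154*, miR-191*, miR-199b*, miR-299*, miR-29c* and miR-30c-2* were detected only on replicate 1 at 25 mg/kg/day, on slide 1. MiR-30b* and miR-378* were detected on 1 array at 50 mg/kg/day and miR-467e* on 1 at 75 mg/kg/day, all on slide 2. Among these, miR-191* had a median ratio to negative controls of 1.06 over the 18 arrays and miR-29c* of 1.05, the other 7 lying between 0.942 and 1.01. Among the let-7 star names, let-7d*, let-7a* and let-7g* were detected on 0 arrays, as against 8 for let-7b* and 5 for let-7f*, and the partners of all 5 were present.

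No array stood apart from the others of its dose group by Dixon's test among the 33 groups of values examined, the number of detected star names and the 10 most detected star names at each of 3 doses.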
